A study of Homo sapiens with 3 samples.

Results

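The peptidylarginine deiminase (PADI) genes PADI1, PADI2, PADI3 and PADI4 were followed across CAL27 cells and their drug-resistant derivatives. The 4 genes were picked by symbol from the 19220 genes of the count table. They were selected on their lower values in the oxaliplatin-resistant line, so the ratio of that line to CAL27 is a description of how they were chosen. CAL27 is an established cell line from a squamous carcinoma of the mouth. RNA-seq values were used from 1 library of each of 3 lines. The parental CAL27 cells (wild type in the labels) grew without drug. CAL27/5FU cells are labelled 5-fluorouracil resistant and were kept in 10 µM 5-fluorouracil (5FU), which blocks the synthesis of thymidylate. CAL27/OXA cells are labelled oxaliplatin resistant and were kept in 10 µM oxaliplatin (OXA), a platinum drug that crosslinks DNA. Each resistant line was in its drug and the parental line was not, so resistance, the drug itself and time in culture cannot be told apart. All 3 lines share the CAL27 background, and no further allele is given in the labels.

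PADI enzymes convert arginine within proteins to citrulline, a reaction called deimination or citrullination that removes the positive charge of the side chain. They need calcium and use a cysteine in their active site. PADI1 and PADI3 are known from the upper epidermis and the hair follicle, where filaggrin, keratins, trichohyalin and S100A3 are deiminated. PADI2 is found in many tissues, with myelin basic protein and vimentin among its substrates. PADI4 is the enzyme of neutrophils and enters the nucleus to act on histones. PADI6, the remaining gene of the cluster, is known from the oocyte.

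The 5 genes lie side by side on chromosome 1 of GRCh38, within 335 kb (17066761 to 17401699, GENCODE 29). PADI2 (ENSG00000117115.12) lies on the minus strand from 17066761 to 17119435. The others are on the plus strand. PADI1 (ENSG00000142623.10) spans 17205126 to 17246005, PADI3 (ENSG00000142619.4) spans 17249098 to 17284233 and PADI4 (ENSG00000159339.13) spans 17308195 to 17364004. PADI6 (ENSG00000276747.1) spans 17372196 to 17401699. To show what the members share, the coding sequence around the active-site cysteine is given from a GENCODE 29 transcript of PADI1, PADI2 and PADI4. These 51 bases lie in the last of 16 exons, within the coding sequence, and the capitals mark the cysteine codon.
PADI1, chr1:17244160-17244210, plus strand, codon 645: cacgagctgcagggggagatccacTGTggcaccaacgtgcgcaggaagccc
PADI2, chr1:17069077-17069127, minus strand, codon 647: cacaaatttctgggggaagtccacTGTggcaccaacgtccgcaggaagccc
PADI4, chr1:17363672-17363722, plus strand, codon 645: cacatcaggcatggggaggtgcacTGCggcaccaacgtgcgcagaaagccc
The cysteine codon lay 18 codons before the end of the coding sequence in each of the 3. In this stretch PADI1 differed from PADI2 at 8 bases and from PADI4 at 10, and PADI2 differed from PADI4 at 12. Over the whole coding sequence, identity between members ran from 64.4% (PADI2 and PADI4) to 69.0% (PADI1 and PADI4). The longest run of bases that any pair of transcripts shared was 30, between PADI1 and PADI3. The members are therefore related but were far from identical, and how the counting treated reads that match several genes is not given in the sources used here.

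The libraries held between 37297713 and 43455488 counts, and 15275 to 15407 genes had at least 1 count. Counts were scaled between libraries by the trimmed mean of M values (TMM) and are given relative to the scaled library size (CPM). The deposited FPKM values also divide by gene length, so levels of different genes are compared in FPKM only. A gene was tested where its mean over the 3 libraries was at least 10 counts, which held for 13676 genes and for 3 of the 4 members. Only 1 library per line carries a label and was used, so no spread between replicates was measured and no p-value is given. The 95% interval of each ratio between libraries was computed by the exact Clopper-Pearson method from both counts and covers counting error only. A gene is called higher or lower past 2-fold on the log2 CPM scale with a prior count of 2.

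PADI3 was the leading member of the parental cells, PADI2 led in CAL27/5FU cells, and in CAL27/OXA cells PADI3 alone stayed at more than 1 FPKM. PADI3 had 1315 counts in the parental line, 766 in CAL27/5FU and 674 in CAL27/OXA, which were 9.87, 6.44 and 4.86 FPKM. It was highest in the parental library and lower in both derivatives. PADI2 had 1032, 1829 and 80 counts in the same order, or 5.66, 11.2 and 0.422 FPKM. PADI2 thus had its highest value in CAL27/5FU and its lowest in CAL27/OXA. PADI1 had 246, 322 and 94 counts, or 1.53, 2.24 and 0.562 FPKM. Its order over the libraries was that of PADI2.

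PADI4 was close to the limit of detection in all libraries. It had 10 counts in the parental line, 11 in CAL27/5FU and 2 in CAL27/OXA, or 0.106, 0.130 and 0.0203 FPKM. A floor of 3 counts corresponds to 0.0770, 0.0766 and 0.0675 CPM, and PADI4 in CAL27/OXA lay under it at 0.0450 CPM. PADI6 had 0, 0 and 1 count. Neither gene passed the filter on low counts.

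**Figure D1:**
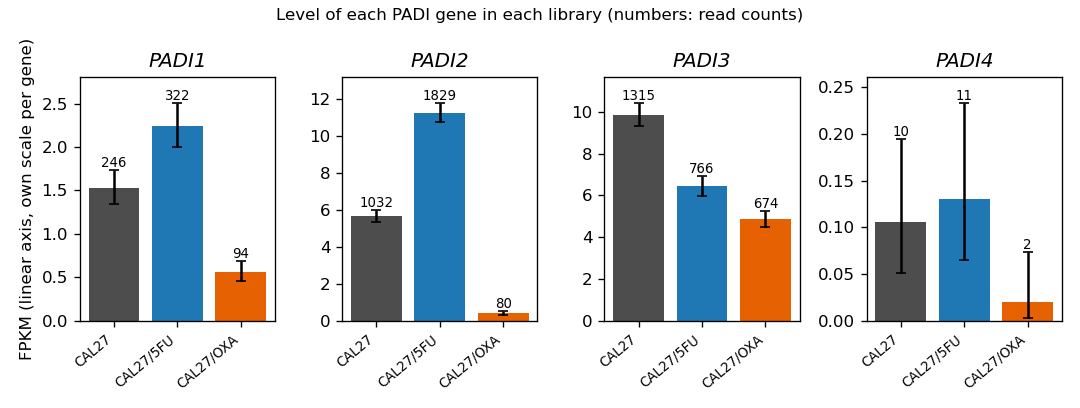
Level of each PADI gene in FPKM (vertical axis, linear, a scale of its own for each gene) in the CAL27, CAL27/5FU and CAL27/OXA libraries. Bars are the value of 1 library, lines are exact 95% Poisson intervals on its count, and the number above each bar is the count. PADI2 has 1829 counts in CAL27/5FU and 80 in CAL27/OXA, and PADI4 has at most 11 counts in any library.

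In the CAL27/OXA library all 3 tested members lay past 2-fold below CAL27. This was the contrast on which they were chosen, and 9.28% of all tested genes were lower by more than 2-fold there (6.54% were higher). With libraries scaled by total counts, genes called higher made up 51.1% of all calls in this comparison, against 41.3% here. PADI2 lay furthest below, at a log2 ratio of -3.84 (interval -4.23 to -3.55). Without the prior count this was 14.7-fold lower (11.7 to 18.7), and PADI2 ranked 93 from the lowest ratio of the 13676 genes. PADI1 followed at -1.56 (-1.94 to -1.23), or 2.98-fold lower (2.34 to 3.83). PADI3 was nearest to the threshold at -1.15 (-1.29 to -1.02), or 2.22-fold lower (2.03 to 2.44). The intervals of the 3 genes did not overlap except between PADI1 and PADI3, which met from -1.29 to -1.23. The ratio of PADI4, 2 counts against 10, was 0.175 with a counting interval from 0.0187 to 0.823. In bulk RNA, fewer cells that express a gene and less of its RNA per cell cannot be told apart.

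In CAL27/5FU cells the members lay nearer to CAL27, and on both sides of it. None of the 3 tested members passed 2-fold in either direction against CAL27, where 6.72% of tested genes were lower and 8.46% higher. PADI2 was 1.76-fold above CAL27, with a log2 ratio of 0.82 (0.71 to 0.93). PADI1 was 1.30-fold above it, at 0.38 (0.14 to 0.63). PADI3 lay on the other side of 0, at -0.79 (-0.92 to -0.66), or 1.72-fold below CAL27. The counting intervals of all 3 excluded 0, and the median absolute log2 ratio of all tested genes in this comparison was 0.33. PADI1 at 0.38 was therefore near the middle of all genes by size, and PADI2 and PADI3 were beyond it. PADI4, with 11 counts against 10, had a log2 ratio of 0.13 without a prior count (-1.24 to 1.52), and no difference was detectable at this depth. Both comparisons use the same CAL27 library.

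Set directly against CAL27/5FU, the CAL27/OXA library was lower by more than 2-fold in PADI1 and PADI2, 2 of the 3 tested members. Among all tested genes 8.38% were lower and 4.18% higher in this comparison, which also contains the library that chose the members. PADI2 was 25.9-fold lower (20.7 to 32.9), with a log2 ratio of -4.66, and ranked 27 from the lowest ratio. PADI1 was 3.89-fold lower (3.08 to 4.95), at -1.93. PADI3 was 1.29-fold lower (1.16 to 1.43), at -0.37 (-0.52 to -0.22), which lies close to the 0.29 that was the median absolute ratio of all genes. PADI4 had 2 counts against 11, a log2 ratio of -2.64 without a prior count (-5.86 to -0.45).

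**Figure D2:**
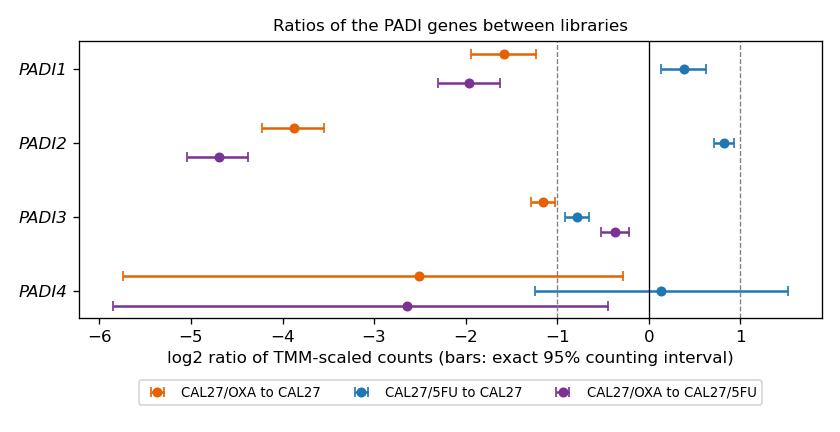
Log2 ratio of each PADI gene between libraries (horizontal axis), from TMM-scaled counts without a prior count, for CAL27/OXA to CAL27, CAL27/5FU to CAL27 and CAL27/OXA to CAL27/5FU. Points are ratios of 1 library to 1 library, bars are exact 95% counting intervals, and dashed lines mark 2-fold. PADI2 lies furthest from 0 in both ratios of CAL27/OXA, and the bars of PADI4 are the widest.

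The members took different shares of the family in each line. The 4 members together had 17.2 FPKM in the parental line, 20.0 in CAL27/5FU and 5.87 in CAL27/OXA. By summed counts the log2 ratio to CAL27 was 0.16 (0.086 to 0.24) in CAL27/5FU and -1.80 (-1.92 to -1.69) in CAL27/OXA. PADI3 held 57.5% of the summed FPKM in the parental line, 32.1% in CAL27/5FU and 82.9% in CAL27/OXA. PADI2 held 33.0%, 56.0% and 7.19%. PADI1 kept 8.92%, 11.2% and 9.58%, a narrow range beside the other 2 genes.

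Ratios between members within a library do not depend on how libraries are scaled. The FPKM of PADI2 was 0.574 times that of PADI3 in CAL27 (0.528 to 0.623), 1.75 times in CAL27/5FU (1.60 to 1.90) and 0.0868 times in CAL27/OXA (0.0679 to 0.110). The order of PADI2 and PADI3 was thus opposite in CAL27 and CAL27/5FU, beyond counting error. PADI2 was 3.70 times PADI1 in CAL27 (3.22 to 4.27) and 5.01 times in CAL27/5FU (4.45 to 5.66). In CAL27/OXA this ratio was 0.750 with an interval of 0.550 to 1.02, so the order of PADI1 and PADI2 could not be told there. PADI1 was 0.155, 0.348 and 0.116 times PADI3 in CAL27, CAL27/5FU and CAL27/OXA. PADI4 stayed at the bottom in each library, at 0.0107, 0.0202 and 0.00418 times PADI3. Among all 19225 genes of the FPKM table, PADI3 was above 67.0%, 57.8% and 55.1% of genes in the 3 libraries, and PADI2 was above 58.0%, 67.4% and 37.0%.

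**Figure D3:**
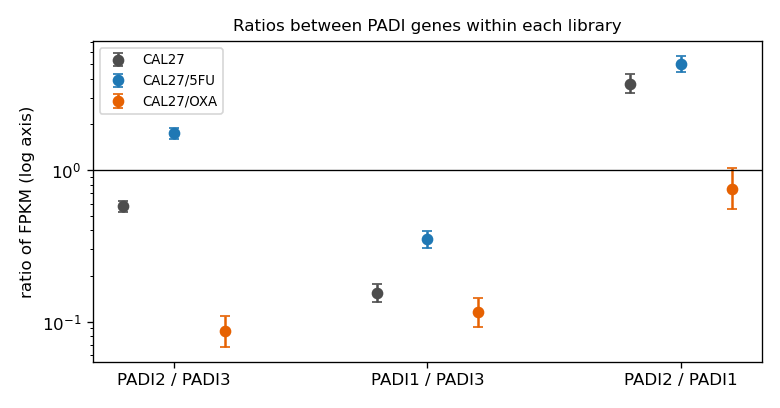
Ratio of the FPKM of PADI genes within a library (vertical axis, log scale) for PADI2 to PADI3, PADI1 to PADI3 and PADI2 to PADI1, in each of the 3 lines. Points are 1 library, bars are exact 95% counting intervals and the line marks a ratio of 1. PADI2 to PADI3 lies below 1 in CAL27 (0.574), above it in CAL27/5FU (1.75) and at 0.0868 in CAL27/OXA.

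The genes most like each member were sought among 11540 other genes that averaged 100 counts or more, by the distance between their pairs of log2 ratios to CAL27. These pairs come from 3 libraries and share CAL27, and the likeness is a description. PADI3 had the closest matches, with SGSM2 at a distance of 0.0273, RAB26 at 0.0338 and TP73, a relative of p53, at 0.0369. TP73 had 1149, 671 and 604 counts. Next to PADI1 were FAAH, which breaks down the cannabinoid anandamide, at 0.0701, TRIM55 at 0.0864 and BCL7A at 0.0891. The distance to a match also depends on how many genes have ratios of that size. PADI2, which ranked 93 from the lowest of 13676 genes in CAL27/OXA to CAL27, had no match this close. Its nearest gene was HLA-DMB, which helps load peptides onto class II molecules, at 0.384, with 108, 250 and 6 counts. SERPINA3 (2589, 3252 and 189 counts) and SERPINA5 (325, 590 and 35 counts), both serine protease inhibitors, followed at 0.507 and 0.518.

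The tested genes on both sides of the cluster lay mostly within 2-fold of CAL27 in CAL27/OXA. Of the 10 nearest tested genes on each side, 3 of 20 lay past 2-fold below CAL27 and none above, with a median log2 ratio of -0.17 against 0.0055 for all tested genes. Over all tested genes 9.28% were lower there. The next gene beyond PADI2 is SDHB, a subunit of succinate dehydrogenase, with 5986, 5283 and 6045 counts in CAL27, CAL27/5FU and CAL27/OXA. The next gene beyond PADI6 is RCC2, a regulator of chromosome segregation, with 12556, 11003 and 11747 counts. Their log2 ratios of CAL27/OXA to CAL27 were -0.18 and -0.29, so the genes that flank the cluster stayed within 2-fold. The 3 lower genes were CROCC (rootletin, a protein of the ciliary rootlet) with 3275, 1191 and 834 counts, MFAP2 (a microfibril protein) with 57, 47 and 20 counts, and ACTL8 (an actin-like gene known from testis) with 4, 918 and 0 counts. For ACTL8 in CAL27/OXA, 0 counts against 4 in CAL27, a difference was not detectable at this depth. CROCC was also lower in CAL27/5FU, at -1.46 against -2.16 in CAL27/OXA. In CAL27/5FU, 1 of 20 neighbours was higher and 1 lower, with a median of -0.09, beside 8.46% and 6.72% of all tested genes. ACTL8 was the higher gene, and CAL27/OXA lay at least 347-fold below CAL27/5FU at this gene, computed with the floor of 3 counts. In CAL27/OXA against CAL27/5FU, 2 of 20 neighbours were lower and none higher, beside 8.38% and 4.18% of all tested genes.

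**Figure D4:**
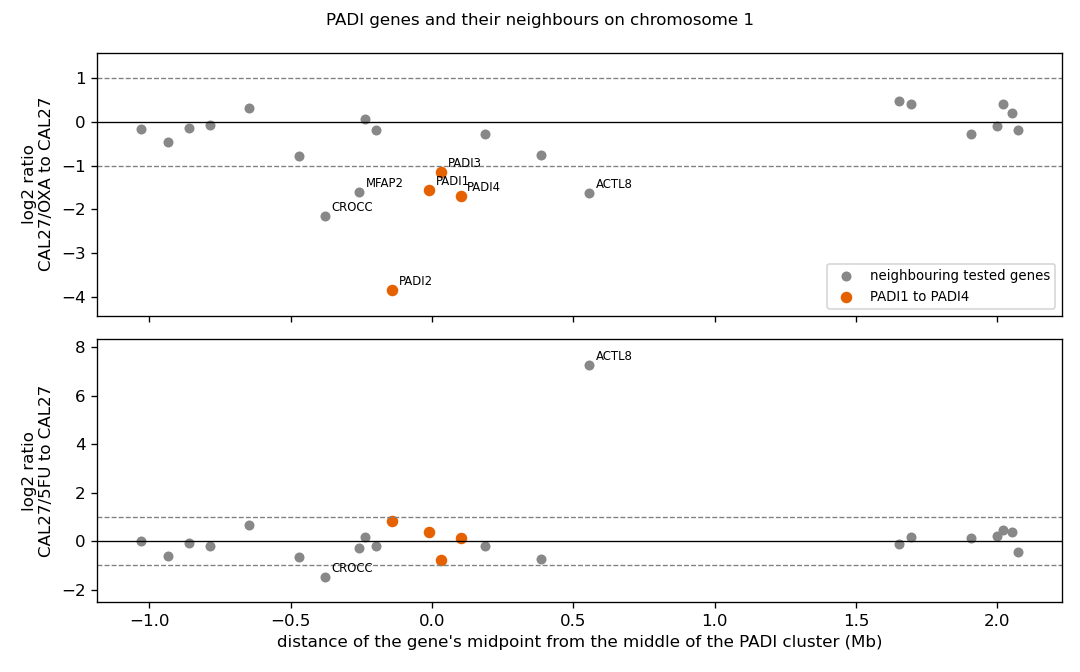
Log2 ratio (vertical axis, prior count 2) of PADI1 to PADI4 and of the 10 nearest tested genes on each side, against the distance of the gene's midpoint from the middle of the PADI cluster in Mb, for CAL27/OXA to CAL27 (top) and CAL27/5FU to CAL27 (bottom). Points are ratios of 1 library to 1 library, dashed lines mark 2-fold, and genes past it are named. In the top panel PADI2 lies lowest at -3.84, and 3 neighbours are past 2-fold, of which ACTL8 rests on 0 counts against 4.

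The promoters of the members differ in base composition. RefSeq windows from 250 bases before to 50 bases after the start (GRCh38.p14) matched PADI1, PADI2 and PADI4, 3 of the 4 members, by symbol. The window of PADI2 had 69.0% G and C, 28 CpG pairs and an observed-to-expected CpG ratio of 0.786, which is above 66.4% of 35116 promoters. That of PADI1 had 63.0% G and C but 4 CpG pairs and a ratio of 0.135, above 13.7% of promoters. PADI4 had 7 CpG pairs and a ratio of 0.247, above 27.1%. The 250 bases before the start are shown for PADI1 and PADI2, the tested members lowest in CAL27/OXA against CAL27/5FU. The capitals mark GGGCGG, the letters of the Sp1 motif, searched on both strands.
PADI2, chr1:17119452-17119701, minus strand: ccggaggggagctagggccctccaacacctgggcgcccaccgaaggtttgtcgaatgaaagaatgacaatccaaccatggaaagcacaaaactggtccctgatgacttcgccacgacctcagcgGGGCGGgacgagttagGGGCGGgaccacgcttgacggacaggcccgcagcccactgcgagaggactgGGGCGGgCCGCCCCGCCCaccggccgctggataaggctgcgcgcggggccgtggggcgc
PADI1, chr1:17204878-17205127, plus strand: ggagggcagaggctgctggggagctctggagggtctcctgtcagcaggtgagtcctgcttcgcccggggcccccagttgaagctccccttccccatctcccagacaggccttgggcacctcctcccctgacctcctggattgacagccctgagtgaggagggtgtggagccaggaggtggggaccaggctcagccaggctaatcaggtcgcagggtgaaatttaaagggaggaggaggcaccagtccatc
The whole window of PADI2 held 6 matches to GGGCGG, of which 1 lies after the start and 2 overlap by 1 base. This motif is common, in 45.0% of promoters. PADI1 held no match to any motif searched, which were also TGACTCA and TGAGTCA for AP-1, CCAAT for NF-Y and TATAAA for the TATA box. PADI4 held 1 match to TGACTCA, which begins 54 bases before the start, and 1 to TATAAA, 30 bases before it. The AP-1 letters occur in 4.95% of promoters, CCAAT in 34.6% and TATAAA in 11.5%. A match shows only that these letters are in the window.

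Factors described at PADI promoters or enhancers were measured in all 3 libraries. Of the 15 genes of this list, 2 were higher and 2 lower by more than 2-fold in CAL27/OXA, and 1 was higher and 1 lower in CAL27/5FU. Among all tested genes, 6.54% were higher and 9.28% lower in CAL27/OXA, and 8.46% and 6.72% in CAL27/5FU. The list medians were -0.34 and -0.35. The AP-1 subunit FOSL1 had 2805 counts in the parental line, 8377 in CAL27/5FU and 21063 in CAL27/OXA, with log2 ratios of 1.57 and 2.72. JUN had 2204, 3002 and 5354 counts and was past 2-fold in CAL27/OXA, at 1.09. Other AP-1 genes lay on the opposite side, with FOSL2 at -1.24 and FOS at -1.19 in CAL27/OXA. SP1 had 7856, 5730 and 6392 counts, with log2 ratios of -0.46 and -0.49, within 2-fold. The Sp1 and AP-1 factors thus differed in size and direction of their ratios, and their part in the PADI values was not tested.

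PADI3 was below CAL27 in both resistant lines, and PADI1 and PADI2 were below it in CAL27/OXA and above it in CAL27/5FU. Most factors of late keratinocyte differentiation on the list were lower in each resistant line, and their part in the PADI values was not tested. In CAL27/OXA 8 of 13 were lower by more than 2-fold and none higher, with a median log2 ratio of -1.86, beside 9.28% of all tested genes. In CAL27/5FU 10 of 13 were lower and none higher, with a median of -1.45, beside 6.72%. OVOL1, a zinc finger factor of the epidermis, had 404 counts in the parental line, 147 in CAL27/5FU and 30 in CAL27/OXA. CEBPA had 359, 140 and 27 counts. Both genes were lowest in CAL27/OXA, with log2 ratios to CAL27 of -3.85 and -3.82. ZNF750, a regulator of terminal differentiation, had 759, 77 and 82 counts and the derivatives could not be told apart, at a log2 ratio of CAL27/OXA to CAL27/5FU of -0.09 (-0.56 to 0.38). KLF4, at 617, 571 and 613 counts, stayed within 2-fold. EHF, an ETS factor of epithelia with the highest counts of the list (57656, 47262 and 86538), had log2 ratios of -0.29 in CAL27/5FU and 0.40 in CAL27/OXA.

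Substrates of deimination in the cornified layer and the hair follicle were mostly at low counts. Of 9 listed genes 6 were tested. In CAL27/OXA 3 were lower by more than 2-fold and none higher (median -0.77), and in CAL27/5FU 2 were lower and none higher (median -0.65). Of all tested genes, 9.28% and 6.72% were lower in these comparisons. FLG, which encodes profilaggrin, had 72 counts in the parental line, 56 in CAL27/5FU and 10 in CAL27/OXA. Its log2 ratio was -2.79 (-4.16 to -2.08) in CAL27/OXA and -0.36 (-0.90 to 0.15) in CAL27/5FU. Among these genes FLG alone was past 2-fold in CAL27/OXA against CAL27/5FU, at -2.43. S100A3, a calcium-binding protein of the hair cuticle, had 751, 186 and 331 counts and was lower in both lines. KRT1, a keratin of the suprabasal epidermis, had 44 counts in CAL27 and none in the derivatives, at least 14.7-fold lower in CAL27/5FU and 16.7-fold lower in CAL27/OXA. KRT10 (509, 509 and 658 counts), HRNR (110, 168 and 152 counts) and TCHH, which encodes trichohyalin (34, 17 and 34 counts), stayed within 2-fold. LOR was at 0 in all libraries.

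Other proteins described as substrates, in the nucleus, the cytoplasm and outside the cell, stayed mostly within 2-fold. Of 15 tested genes, 1 was higher and 2 lower in CAL27/OXA, and 1 was higher and none lower in CAL27/5FU. The shares of all tested genes were 6.54% higher and 9.28% lower in CAL27/OXA, and 8.46% and 6.72% in CAL27/5FU. The list medians were -0.08 and -0.13, and both changed sign when libraries were scaled by total counts. VIM, the intermediate filament vimentin, had 27 counts in the parental line, 863 in CAL27/5FU and 1395 in CAL27/OXA, log2 ratios of 4.90 and 5.41. CXCL10, a chemokine, had 723, 1149 and 236 counts, with ratios of 0.66 and -1.80. Its order over the libraries was that of PADI1 and PADI2. The DNA methyltransferase DNMT3A was just past 2-fold lower in CAL27/OXA, at -1.02 (-1.24 to -0.80). The glycolytic enzymes ENO1 and PKM lay at -0.46 and -0.31 there.

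Enzymes that act on the same proteins before or after deimination were mostly within 2-fold, apart from the transglutaminases. Of these TGM1 was past it in both resistant lines, and the other tested ones in CAL27/OXA only. Over all tested genes, 6.54% were higher and 9.28% lower in CAL27/OXA, and 8.46% and 6.72% in CAL27/5FU. Of the 8 tested genes for processing of profilaggrin and filaggrin, 1 was lower in each resistant line and none higher, with medians of -0.35 in CAL27/OXA and -0.34 in CAL27/5FU. This was KLK5, a serine protease of the skin, with 1175 counts in the parental line, 20 in CAL27/5FU and 319 in CAL27/OXA. BLMH, which takes filaggrin apart into amino acids, had 1055, 1252 and 1840 counts and stayed within 2-fold. Of 4 tested transglutaminases, which crosslink proteins of the cornified envelope and other tissues, 3 were lower and 1 higher in CAL27/OXA, and 1 was lower in CAL27/5FU. TGM1, the keratinocyte enzyme, had 710, 137 and 165 counts, with log2 ratios of -2.36 and -2.28 in CAL27/5FU and CAL27/OXA. TGM2 had 3157, 1745 and 1769 counts and was just past the threshold in CAL27/OXA, at -1.02 with an interval that spans it (-1.11 to -0.94), against -0.86 in CAL27/5FU. Between the derivatives, the log2 ratios of CAL27/OXA to CAL27/5FU were 0.08 for TGM1 and -0.16 for TGM2. The remaining tested transglutaminases were at low counts in each library.

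Genes listed around the metabolism of arginine and citrulline differed from each other in direction. Of 8 tested genes, 1 was higher and 2 lower in CAL27/OXA (median 0.61), and 4 were higher and 1 lower in CAL27/5FU (median 0.60). Over all tested genes, 6.54% were higher and 9.28% lower in CAL27/OXA, and 8.46% and 6.72% in CAL27/5FU. ASS1, which makes argininosuccinate from citrulline, had 19757 counts in the parental line, 7475 in CAL27/5FU and 3948 in CAL27/OXA. Its log2 ratios were -1.41 and -2.51. ARG2, the mitochondrial arginase, went the other way with 482, 1048 and 2034 counts, at 1.11 and 1.88. GATM, the first enzyme of creatine synthesis, had 222, 1070 and 407 counts and was past 2-fold higher in CAL27/5FU only, at 2.25. DDAH1 and AZIN2 were both at 1.40 there. The protein arginine methyltransferases, which modify the same residue that PADI enzymes convert, stayed within 2-fold in CAL27/OXA in all 8 tested genes (median 0.24). PRMT6 alone was past it in CAL27/5FU, at 1.09, with 986, 2109 and 2050 counts (list median 0.17).

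Genes of calcium entry and calcium pumps were listed because PADI enzymes depend on calcium. Of 10 tested genes, 4 were lower and none higher in CAL27/OXA (median -0.75), and 3 were lower and 1 higher in CAL27/5FU (median -0.44). The shares lower among all tested genes were 9.28% and 6.72%, and 8.46% were higher in CAL27/5FU. The channel TRPV4 had 215 counts in the parental line, 14 in CAL27/5FU and 5 in CAL27/OXA. ATP2B4, a plasma membrane pump, had 3816, 981 and 1507 counts. Both were past 2-fold lower in each derivative. The channel TRPV6 was the gene higher in CAL27/5FU, with 5, 37 and 12 counts.

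**Figure D5:**
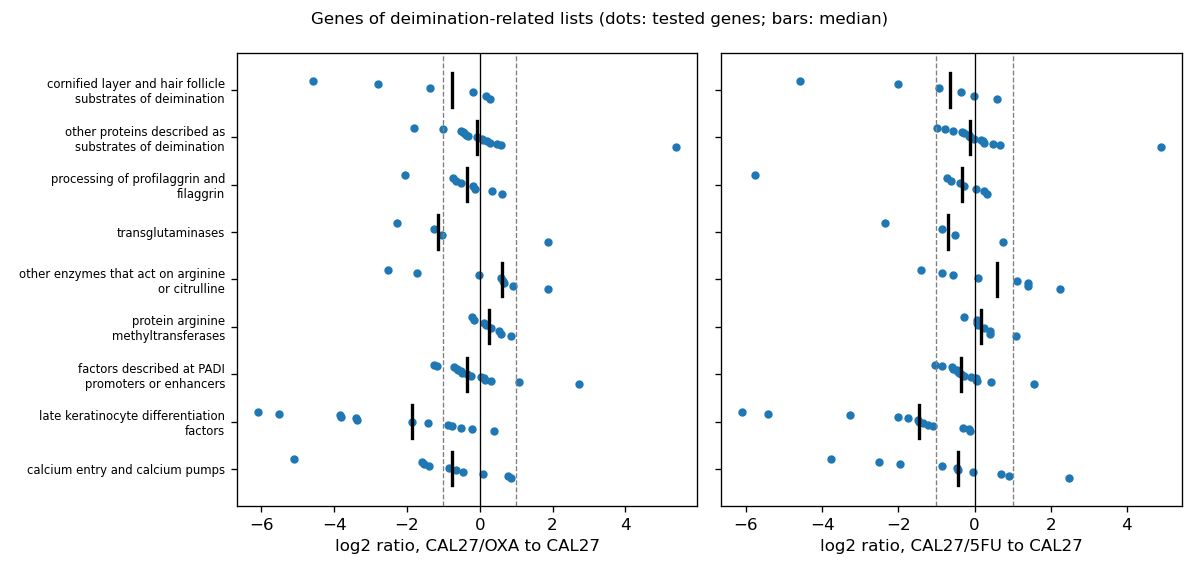
Log2 ratios (horizontal axis, prior count 2) to CAL27 of the tested genes of 9 lists related to deimination, for CAL27/OXA (left) and CAL27/5FU (right). Each dot is 1 gene in 1 pair of libraries, thick bars are list medians and dashed lines mark 2-fold. The list of late differentiation factors has the lowest medians, -1.86 and -1.45, and the methyltransferases lie closest together.

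Markers of cell types were set beside the PADI values. All 10 squamous keratinocyte markers were above the floor in each library, and their summed level was 6727 FPKM in the parental line, 1546 in CAL27/5FU and 2312 in CAL27/OXA. In CAL27/OXA 7 of the 10 were lower by more than 2-fold (median -2.19), and in CAL27/5FU 9 of 10 (median -2.22). The shares lower among all tested genes were 9.28% and 6.72%. The label of a squamous line thus has its markers in each library, at a lower sum in both derivatives. KRT5 had 286124, 46083 and 72716 counts, and TP63, the p63 factor of basal keratinocytes, had 23645, 9759 and 29498. TP63 and SFN were not lower in CAL27/OXA, with log2 ratios of 0.13 and 0.077. The sum of the keratinocyte markers was lowest in CAL27/5FU, where PADI1 and PADI2 were highest. PADI3, like this sum, was lower in both derivatives than in CAL27. The part of these markers in the PADI ratios was not tested.

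PADI4 is a neutrophil gene, and most of the listed leukocyte markers were near 0, with CD14 and ITGAM as exceptions. Of the 8 markers 5 were at or under the floor in each library, with PTPRC at 2, 0 and 0 counts and both CSF3R and SPI1 at 0. Their summed level was 10.7, 22.0 and 5.18 FPKM in CAL27, CAL27/5FU and CAL27/OXA. This sum came mostly from CD14, a receptor for bacterial lipopolysaccharide, with 637, 1290 and 341 counts. CD14 had log2 ratios to CAL27 of 1.01 and -1.09 in CAL27/5FU and CAL27/OXA, in the directions of PADI1 and PADI2. ITGAM, an integrin of myeloid cells, had 176, 27 and 38 counts. Of 6 fibroblast markers COL3A1 was at 0 in all libraries. Their summed level was 7.51, 11.9 and 14.9 FPKM, and of the 4 tested markers COL1A2 and LUM were past 2-fold higher in both derivatives. Among all tested genes 8.46% were higher in CAL27/5FU and 6.54% in CAL27/OXA. COL1A1 had 1387, 1068 and 1050 counts, with log2 ratios of -0.38 in CAL27/5FU and -0.59 in CAL27/OXA. Whether any of these markers bears on the PADI values was not tested.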

How the data were processed

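RNA was extracted with TRIzol, libraries were made with a NEBNext Ultra kit, and Novogene sequenced them on an Illumina NovaSeq instrument. The submitters' processing notes name CASAVA 1.8, HISAT2 2.0.5 and the genome build GRCh38. The counting tool, the annotation and the strandedness are not given in the sources used here. The deposited counts are whole reads per gene symbol, which the authors did not normalize (19220 genes). The deposited FPKM values (19225 genes) were scaled by the authors to library total and gene length: for 100% of 14367 genes with counts in all libraries, both tables gave 1 length within 0.1%. A further 3 columns of per-sample values match no labelled sample and were left out. Their names read like second samples of the same lines, so the use of 1 library per line is a limit of the labels and not of the tables. Library depth is given with the results, and 1 count stands for 0.0225 to 0.0257 CPM.

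TMM factors (0.932, 1.05 and 1.02 for CAL27, CAL27/5FU and CAL27/OXA) came from edgeR 4.0.16 in R 4.3.3, with no test. Log2 ratios carry a prior count of 2, and intervals (SciPy 1.17.1) and folds carry none. Genes at 0 in 1 library are given as bounds with a floor of 3 counts. Scripts were checked on simulated data. Gene positions and transcripts came from GENCODE 29, in which 18769 symbols matched, and promoters from RefSeq. The members and the 12 lists (127 genes) were chosen with earlier results of these data known. The genes named are the members, PADI6, the listed genes, 10 tested neighbours on each side, and the 3 genes nearest to each tested member. A likeness is the Euclidean distance between pairs of log2 ratios. The alternatives were scaling by the upper quartile, by total counts or by the size factors of DESeq2 1.42.0, other filters and prior counts (0.5 and 5), FPKM with pseudocounts of 1 and 0.1, and a call that needs the whole interval past 2-fold. A sequence and the values of 1 listed gene are not reported here.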

Additional observations from a re-analysis of the deposited data

Results flagged for a closer look

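Among the 4 members and the 127 listed genes, 9 tested genes had ratios to CAL27 of opposite direction in the resistant lines, with both counting intervals clear of 0. The share of all tested genes that meet this rule was not computed, so 9 cannot be called many or few. Counting intervals leave out scaling: total counts moved the median of all tested genes to 0.14 in CAL27/OXA and 0.17 in CAL27/5FU. The differences were not tested, because 1 labelled library per line was used, and both ratios share the CAL27 library. The members were selected on their lower values in CAL27/OXA, so that direction was set in advance for PADI1 and PADI2. PADI1 had a log2 ratio of 0.38 in CAL27/5FU and -1.56 in CAL27/OXA, a difference of -1.93. For PADI2 the ratios were 0.82 and -3.84, a difference of -4.66. CXCL10 (0.66 and -1.80), CD14 (1.01 and -1.09) and the protease PCSK6 (0.32 and -0.18) were also above CAL27 in CAL27/5FU and below it in CAL27/OXA, with differences of -2.46, -2.10 and -0.50. The other 4 lay the opposite way. TP63 (-1.28 and 0.13), SFN (-1.08 and 0.077), EHF (-0.29 and 0.40) and NPM1 (-0.16 and 0.10) had differences of 1.41, 1.16, 0.69 and 0.26. With total counts NPM1 changed sign in CAL27/5FU, to 0.015.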

How the results depend on the processing

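No direction of a member was reversed under any alternative run. With 1 labelled library per line no replicate could be left out. No paired analysis was possible because the labels give 1 library per line, and the columns that may be second samples carry no label. Of the values recomputed, 145 stayed the same within counting error or 1.5 times, and 35 moved. Scaling by total counts moved the median of all tested genes from 0.0055 to 0.14 in CAL27/OXA and from -0.0035 to 0.17 in CAL27/5FU, both against CAL27. In CAL27/OXA against CAL27 it gave -1.02 for PADI3, and in CAL27/5FU 0.99 for PADI2 and -0.61 for PADI3. It raised the share of higher genes among those called in CAL27/5FU from 55.7% to 67.2%, and FPKM with a pseudocount of 0.1 to 65.6%. In CAL27/OXA against CAL27 total counts gave 1100 genes higher and 1052 lower, which turned the balance of the calls.

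FPKM with a pseudocount of 1, which pulls low genes towards 0, left 1 member (PADI2) past 2-fold lower in CAL27/OXA against CAL27, in place of 3. The log2 ratios there became -0.70 for PADI1, -2.23 for PADI2, -0.89 for PADI3 and -0.12 for PADI4, where the log2 CPM scale gave -1.70 for PADI4. PADI3 was -0.55 in CAL27/5FU against CAL27. In CAL27/OXA against CAL27/5FU, PADI1 was -1.05, PADI2 -3.11 and PADI4 -0.15 (-1.81 on the log2 CPM scale). A pseudocount of 0.1 gave -3.46 for PADI2 and -1.01 for PADI3 in CAL27/OXA against CAL27, and 0.98 for PADI2 and -0.61 for PADI3 in CAL27/5FU.

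Counts of all genes past 2-fold moved with the filter and the call. In CAL27/OXA against CAL27, 894 genes were higher and 1269 lower. These were 1348 and 1925 with no filter beyond 1 count, 368 and 481 by FPKM with a pseudocount of 1, and 526 higher where the whole interval had to pass. In CAL27/5FU against CAL27 there were 1157 higher and 919 lower, then 1899 and 1555, 503 and 311, and 749 and 593, with 760 higher at a mean of at least 50 counts. In CAL27/OXA against CAL27/5FU there were 571 higher and 1146 lower, then 981 and 1861, 165 and 437, and 319 and 709, with 369 higher at a mean of at least 50 counts. Depth limits PADI4 most, since 2 to 11 counts leave its ratio uncertain by several fold.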

Other observations

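The lists were also set between the resistant lines, in CAL27/OXA against CAL27/5FU, where 8.38% of all tested genes were lower by more than 2-fold and 4.18% higher. Of the late differentiation factors 3 of 13 were lower and none higher, with a median log2 ratio of -0.09. These were GRHL1, a grainyhead factor of epithelia, at -1.37, OVOL1 at -2.39 and CEBPA at -2.46. Of the squamous markers 3 were higher and 2 lower. KRT14, the basal partner of KRT5, was higher at 2.97 with 58222, 948 and 8423 counts in CAL27, CAL27/5FU and CAL27/OXA. TP63 and SFN were higher at 1.41 and 1.16, and KRT6A and PKP1 lower at -1.14 and -1.10. Of the genes that process profilaggrin KLK5 alone passed 2-fold, higher at 3.69. Among the factors described at PADI promoters or enhancers FOSL1 alone passed it, higher at 1.15. Of 4 tested transglutaminases 1 was higher and none lower. Of 10 tested genes of calcium entry and calcium pumps 3 were lower and 1 higher, all at low counts in both resistant lines. Of the genes listed around the metabolism of arginine and citrulline ASS1 and GATM were lower, at -1.10 and -1.57. Among the other substrates CXCL10 was lower at -2.46 and GSK3B, a kinase of glycogen metabolism and WNT signalling, higher at 1.04. GSK3B had 4602, 2337 and 5457 counts in CAL27, CAL27/5FU and CAL27/OXA. Its log2 ratios to CAL27 were -0.98 in CAL27/5FU and 0.056 in CAL27/OXA.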
